A study of Mus musculus with 2 samples.

Results

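The CC and CXC chemokine genes followed here in single microglia of the mouse hippocampus were Ccl2, Ccl3, Ccl4, Ccl7, Ccl9, Ccl12, Cxcl2, Cxcl10 and Cxcl16. They were taken by symbol, 9 of the 32285 gene IDs counted, and each symbol stood for 1 ID. The data were 1 single-cell RNA library from Control mice and 1 from FGR mice, FGR being fetal growth restriction, poor growth before birth. All mice were Tmem119-tdTomato+/-, which carry 1 copy of a red reporter of the microglial gene Tmem119, and were 3 weeks old. Tmem119-positive cells had been sorted by flow cytometry from the hippocampus. The labels do not state how growth was restricted or how many animals gave cells to each library. With 1 library per group, called Control and FGR after their labels, no difference was tested, and higher or lower describes these 2 libraries. All intervals are at 95% and cover counting error only.

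A barcode was taken as a cell at 1500 or more unique molecular identifiers (UMIs, each standing for 1 captured transcript molecule), 200 or more genes and at most 10% mitochondrial UMIs. This gave 10687 Control and 8618 FGR cells, with medians of 4657 and 4920 UMIs and 53560293 and 45441515 UMIs in all. All 12 microglial markers were detected in both libraries, P2ry12 in 99.6% and 98.7% of the Control and FGR cells, and Tmem119 in 95.8% and 94.9%. The lowest shares in both libraries were those of Sall1 (88.3% and 77.8%) and P2ry13 (84.6% and 78.9%). Another cell type's markers outnumbered the microglial ones in 17 Control and 48 FGR cells, most of them led by vascular or fibroblast genes. Summed astrocyte markers stood at 173 and 309 counts-per-million (CPM, UMIs scaled to the library total), endothelial markers at 34.9 and 62.2, mural or fibroblast markers at 16.1 and 32.6, and oligodendrocyte markers at 186 and 214. Summed monocyte markers stood at 9.60 and 6.91 CPM (2 of 4 detected, Ly6c2 and Chil3 at 0). Neutrophil markers stood at 168 and 187 CPM, nearly all from Csf3r, which microglia also express, with Ly6g and Retnlg at 0. T or NK cell markers stood at 0.149 and 0.682 CPM, with 1 of 6 detected in Control and 5 of 6 in FGR, where 1 cell was led by them. Of the cell barcodes, 31 occurred in both libraries.

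Chemokines are small secreted proteins that draw immune cells along a gradient by binding G protein-coupled receptors on their surface. CC chemokines carry their first conserved cysteines side by side, and in CXC chemokines another residue stands between them. Microglia make many of them after injury or infection, when transcription factors of the NF-kB, AP-1 and interferon-regulatory families act on their promoters, and several chemokine genes are also switched on while brain tissue is taken apart for sorting. Ccl3 and Ccl9 are ligands of Ccr1, Ccl4 is a close relative of Ccl3, Ccl2, Ccl7 and Ccl12 are ligands of Ccr2, and Cxcl2, Cxcl10 and Cxcl16 bind Cxcr2, Cxcr3 and Cxcr6.

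The 7 genes on chromosome 11 and the pair on chromosome 5 are protein-coding genes, with positions from GENCODE M21 on GRCm38. On chromosome 11, Ccl2 (82035571 to 82037453, plus strand) is followed by Ccl7 (82045712 to 82047525, plus) after 8.3 kb and by Ccl12 (82101845 to 82103400, plus) after another 54.3 kb. Further along lie Ccl9 (83572919 to 83578636, minus), Ccl3 (83647844 to 83649355, minus) and Ccl4 (83662584 to 83664683, plus), with 69.2 kb and then 13.2 kb between them. Cxcl16 (70453983 to 70459984, minus) stands apart on the same chromosome. Cxcl2 (90903871 to 90905938, plus) and Cxcl10 (92346638 to 92348889, minus) are 1440.7 kb apart on chromosome 5.

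Promoter sequence was taken from RefSeq (GRCm38.p6) for 5 of the 9 genes: Ccl3, Ccl9, Ccl12, Cxcl2 and Cxcl10. The 250 bases before each start were searched on both strands for the NF-kB consensus, the core of the interferon-stimulated response element, the AP-1 motif TGANTCA and the TATA motif TATAAA. The promoters of Cxcl10 and Cxcl2 are shown because these genes had the largest ratios between the libraries, and that of Ccl3 because it held no match to any of the 4 motifs. Each runs 5′ to 3′ on the gene's own strand from 250 to 51 bases before the start, with motif matches in capitals. They cover chr5:92348940-92349139 (minus) for Cxcl10, chr5:90903649-90903848 (plus) for Cxcl2 and chr11:83649429-83649628 (minus) for Ccl3. The start is that of RefSeq, which for Cxcl2 and Ccl3 differs from the GENCODE position given above.
Cxcl10: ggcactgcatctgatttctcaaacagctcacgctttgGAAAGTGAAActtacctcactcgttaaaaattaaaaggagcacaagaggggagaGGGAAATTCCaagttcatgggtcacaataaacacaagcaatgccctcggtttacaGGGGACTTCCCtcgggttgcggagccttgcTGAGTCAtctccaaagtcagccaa
Cxcl2: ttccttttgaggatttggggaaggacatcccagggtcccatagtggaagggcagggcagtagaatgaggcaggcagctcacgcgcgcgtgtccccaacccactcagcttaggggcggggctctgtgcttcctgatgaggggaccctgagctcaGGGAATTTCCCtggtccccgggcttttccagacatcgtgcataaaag
Ccl3: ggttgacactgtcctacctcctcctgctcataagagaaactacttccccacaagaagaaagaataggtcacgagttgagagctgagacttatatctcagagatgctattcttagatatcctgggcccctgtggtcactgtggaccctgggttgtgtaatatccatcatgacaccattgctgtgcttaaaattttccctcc
Reading from the left, the capitals in Cxcl10 are a response element core (213 to 204 bases before the start), an NF-kB match (159 to 150), a pair of overlapping NF-kB matches (104 to 94) and an AP-1 match (74 to 68). In Cxcl2 the capitals are a pair of overlapping NF-kB matches on opposite strands, 97 to 87 bases before the start. Ccl9 had 1 NF-kB match, 1 AP-1 match and 3 TATA matches, and Ccl12 had 1 TATA match. Of 32851 mouse promoters of the same length, 7.25% held an NF-kB match, 2.98% the response element core, 6.75% the AP-1 motif and 12.4% the TATA motif. A match is a stretch of letters, and binding was not measured.

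Summed over the cells of a library, the 9 genes ranged over more than 2 orders of magnitude, with Ccl4 and Ccl3 far above the others. The genes together made up 2998 CPM of the Control library and 5895 CPM of the FGR library, and Ccl3 and Ccl4 held 81.2% and 86.8% of those UMIs. A gene counted as measured at 50 CPM in at least 1 library, and it was called higher or lower where the whole interval of the FGR over Control ratio lay above 1.5 or below 1/1.5. By this rule 6 of the 9 genes were measured, 3 were higher in FGR (Ccl3, Ccl4 and Cxcl10) and 0 were lower. Among all 3512 genes measured, 2.48% were called higher and 1.17% lower. The median log2 ratio was 0.56 over the 6 measured genes and 0.85 over all 9, beside -0.07 over all genes measured. Cxcl2, Cxcl16 and Ccl7 did not reach the level minimum. With a minimum of 10 CPM, which 8 of the 9 genes reached, Cxcl2 and Cxcl16 were called higher as well, making 5, and 2.17% of the 8328 genes at that minimum were called higher.

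**Figure D1:**
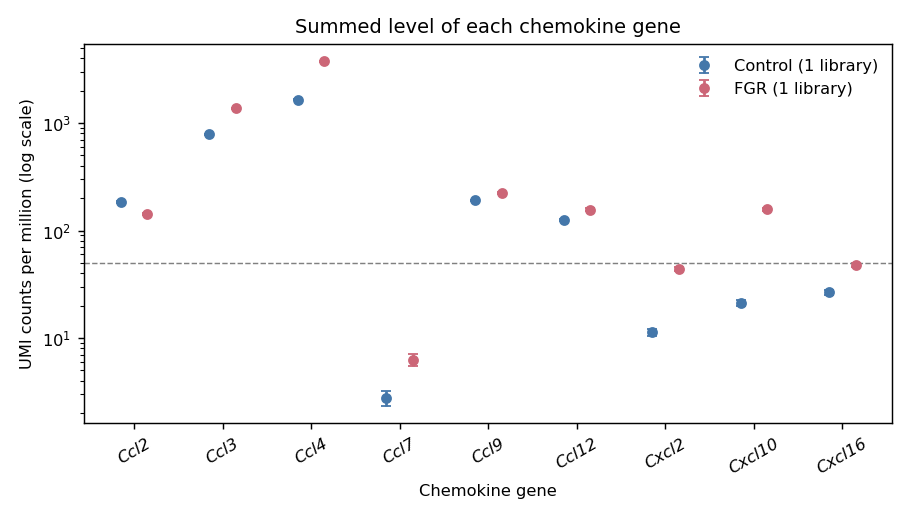
Summed level of each chemokine gene in CPM (log axis) in the Control and FGR libraries, with exact Poisson intervals of counting error, mostly smaller than the points; the dashed line is the 50 CPM minimum. Ccl4 and Ccl3 stand highest in both libraries, Cxcl10 has the widest gap, and Ccl2 is the 1 gene whose Control value is above its FGR value.

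Ccl4, also known as MIP-1β, draws T cells and monocytes, and it had the highest level of the 9. It stood at 1651 CPM (interval 1640 to 1662) in Control and 3745 CPM (3728 to 3763) in FGR, a ratio of 2.27 (2.25 to 2.29). Ccl3, or MIP-1α, acts through Ccr1 among others. It stood at 784 CPM (776 to 791) in Control and 1371 CPM (1360 to 1382) in FGR, a ratio of 1.75 (1.73 to 1.77). These were the 2 CC genes called higher. Without the 31 barcodes found in both libraries, left out after the data were seen, the ratios were 2.268 for Ccl4, 1.75 for Ccl3 and 7.401 for Cxcl10. Ccl9, a Ccr1 ligand that myeloid cells express without stimulation, stood at 191 CPM (187 to 194) and 224 CPM (220 to 229). Its ratio of 1.18 (1.15 to 1.21) lay inside the limits of the rule.

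Of the Ccr2 ligands 0 were called higher or lower. Ccl2, or MCP-1, the main attractant of Ccr2-bearing monocytes, was the 1 gene of the 9 with a lower level in FGR. It stood at 185 CPM (181 to 189) in Control and 143 CPM (139 to 146) in FGR, a ratio of 0.772 (0.748 to 0.796) that did not pass the rule. Ccl12, or MCP-5, a mouse gene with similar function, stood at 126 CPM (123 to 129) and 157 CPM (153 to 161), a ratio of 1.243 (1.202 to 1.285). Ccl7, or MCP-3, was rare, with 147 UMIs in all Control cells and 284 in all FGR cells (2.75 and 6.25 CPM). Its ratio was 2.28 (1.86 to 2.80). Leaving out the cells with 3 or more UMIs of 6 border macrophage markers, a choice made after the data were seen, took this ratio to 1.88 (1.52 to 2.32).

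Of the 9 genes, Cxcl10 and Cxcl2 had the largest ratios. Cxcl10, or IP-10, is induced by interferons and NF-kB and draws Cxcr3-bearing T cells. It stood at 21.2 CPM (20.01 to 22.5) in Control and 157 CPM (153 to 161) in FGR, a ratio of 7.395 (6.946 to 7.88). Cxcl2, or MIP-2, draws neutrophils through Cxcr2. It stood at 11.3 CPM (10.4 to 12.2) and 43.7 CPM (41.8 to 45.7), a ratio of 3.88 (3.54 to 4.26), and at 3.04 (2.76 to 3.36) without the border macrophage marker cells. Cxcl16 is made as a membrane-bound chemokine that is shed by proteases and binds Cxcr6. It stood at 26.6 CPM (25.2 to 28.0) and 48.0 CPM (46.0 to 50.1), a ratio of 1.805 (1.688 to 1.931).

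The order of the levels differed between the libraries in its middle part. In both, Ccl4 was followed by Ccl3 and Ccl9. In Control Ccl2, Ccl12, Cxcl16, Cxcl10, Cxcl2 and Ccl7 came next in that order, and the intervals of the neighbours Ccl9 and Ccl2 overlapped. In FGR Cxcl10 and Ccl12 came next, with overlapping intervals, and Ccl2, Cxcl16, Cxcl2 and Ccl7 followed. Levels are counts of transcript 3′ ends and are not divided by gene length.

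The share of cells with at least 1 UMI of a gene gave the breadth of its expression. It depends on depth, so each cell was also thinned at random to 2000 UMIs, which left out 152 Control and 186 FGR cells below that depth and kept 10535 and 8432. Ccl4 was found in 55.0% of Control cells and 76.0% of FGR cells (exact intervals 54.0% to 55.9% and 75.1% to 76.9%), and in 42.5% and 64.0% after thinning. Ccl3 was found in 42.8% and 58.3% of cells, and in 32.6% and 46.3% after thinning. Thus Ccl4 UMIs were found in most FGR cells even at 2000 UMIs of depth, free RNA included. Ccl9, despite a level far below that of Ccl3, was found in 45.9% and 51.9% of cells, and in 26.03% and 29.98% after thinning.

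Among the Ccr2 ligands, Ccl2 was found in 29.3% of Control cells and 19.5% of FGR cells, and in 18.2% and 12.3% after thinning, with exact intervals that did not overlap. Ccl12 was found in 31.7% and 35.4%, and in 17.2% and 19.6% after thinning. Both genes were thus minority transcripts, with opposite order between the libraries. Cxcl10 was found in 3.17% (2.85% to 3.52%) and 13.2% (12.4% to 13.9%) of cells, and in 1.97% and 9.07% after thinning. Cxcl2 was found in 1.08% and 3.97%, and in 0.589% and 2.50% after thinning. Cxcl16, a low transcript spread over many cells, was found in 11.4% and 19.1%, and in 4.98% and 8.18% after thinning. Ccl7 was found in 0.552% and 0.940% of cells.

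**Figure D2:**
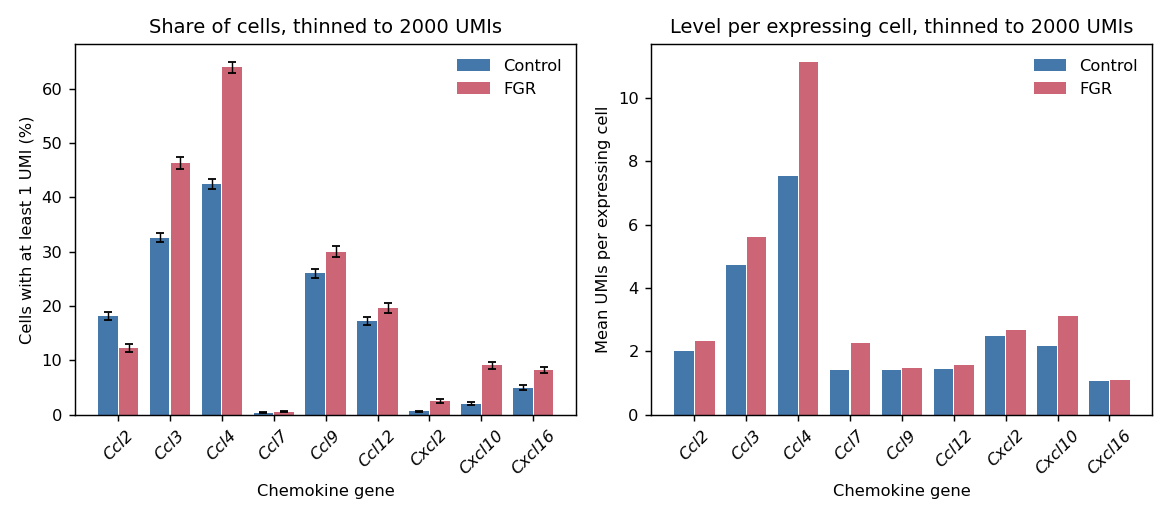
Left, share of cells with at least 1 UMI (%, exact intervals); right, mean UMIs per expressing cell; both for each gene in the Control and FGR libraries after thinning to 2000 UMIs per cell. Ccl4 shows the largest values in both panels, Ccl2 has a lower share and a higher mean per expressing cell in FGR, and Cxcl10 differs more in share than in mean.

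Free RNA in droplets gives UMIs to cells that do not express a gene, and it was gauged in the cells led by another type's markers, whose median depths were 5096 UMIs in Control and 5340 in FGR. Of these, Ccl4 was found in 4 of 17 Control cells (23.5%) and 13 of 48 FGR cells (27.1%), and Ccl3 in 3 of 17 (17.6%) and 13 of 48 (27.1%). Ccl9 was found in 1 of 17 and 3 of 48, Ccl12 in 1 of 17 and 3 of 48, and Ccl2 in 0 of 17 and 3 of 48 (6.25%). For these 5 genes the share in all cells lay above that in the cells led by other markers and above its exact interval, except for Ccl3 in Control, where the interval (3.80% to 43.4%) held the share of 42.8%. Cxcl16 was found in 1 of 17 and 8 of 48 (16.7%, interval 7.48% to 30.2%), a range that holds its share of 19.1% in all FGR cells. Cxcl10 was found in 0 of 17 and 1 of 48 (2.08%), and Cxcl2 in 0 of both, which allows up to 19.5% and 7.40% by the exact interval, too few cells to set a background for Cxcl2, or for Cxcl10 in Control. Ccl7 was found in 2 of 17 and 1 of 48, above its share in all cells, and 3 such cells are also too few to set its background. Of all cells with Ccl7, 55.9% in Control and 48.1% in FGR held a single UMI, and the most held was 18 and 27. In barcodes of 10 to 100 UMIs, which hold mostly free RNA, Ccl4 made up 2163 and 5515 CPM, above its level in cells. With this profile subtracted at 2.08% and 8.12% of UMIs, the ratios were 2.19 for Ccl4, 1.68 for Ccl3, 0.741 for Ccl2 and 7.38 for Cxcl10. At 8.12% of UMIs, this profile alone would put Ccl4 in far more than 27.1% of the FGR cells led by other markers. The 2 gauges of free RNA thus disagree for FGR, and which is nearer was not tested. Shares of cells, means per expressing cell and co-detection values were not corrected for free RNA.

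The level per expressing cell separated Ccl3 and Ccl4 from the rest. An expressing cell held on average 15.05 UMIs of Ccl4 in Control and 26.0 in FGR, with medians of 5 and 10 and maxima of 653 and 387. For Ccl3 the means were 9.17 and 12.4 UMIs, with medians of 4 and 5. Thus the cells with most Ccl4 and Ccl3 lay far above the typical expressing cell. Ccl2 had means of 3.16 and 3.85 UMIs with medians of 2 in both, so that fewer FGR cells held Ccl2 and those that did held on average more. Cxcl10 had means of 3.35 and 6.29 with medians of 2 and 3, and Cxcl2 had means of 5.24 and 5.81 with maxima of 29 and 122. Ccl9 and Ccl12 had means between 1.996 and 2.337 UMIs. Cxcl16 lay near the least a cell can show, since 86.5% of its expressing Control cells and 77.5% of its expressing FGR cells held a single UMI.

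After thinning, the difference in summed level was split into a part from the share of cells and a part from the mean per expressing cell, on the log2 scale. For Ccl4 the parts were 0.59 and 0.57, nearly equal. For Ccl3 they were 0.51 and 0.25. Both genes were thus found in more FGR cells and at more UMIs in each, with free RNA included. Free RNA was taken as 2.08% of Control and 8.12% of FGR UMIs, and its part in this split was not tested. For Cxcl10 the parts were 2.21 and 0.52, for Cxcl2 2.09 and 0.12, and for Cxcl16 0.72 and 0.08, all mostly from the share. In genes this sparse a higher level in each cell also raises the share, so the split cannot separate the parts. Cxcl16 had thinned means of only 1.05 and 1.10 UMIs per expressing cell. For Ccl2 the parts had opposite signs, -0.57 from the share and 0.20 from the mean per expressing cell.

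High expression was also compared. After thinning, 10.7% of Control cells and 24.3% of FGR cells held 10 or more Ccl4 UMIs, and 4.49% and 8.63% held 10 or more Ccl3 UMIs. For Ccl2 the shares at 10 or more UMIs were 0.247% (26 cells, interval 0.161% to 0.361%) and 0.344% (29 cells, 0.230% to 0.494%), with intervals that overlapped. More Control than FGR cells thus held 1 or more Ccl2 UMIs, and at 10 or more a difference was not detectable at this depth. The 5% of cells with most Ccl4 held 45.8% of its UMIs in Control and 33.1% in FGR. For Ccl2 these shares were 57.7% and 73.4%, the reverse order. The first 1% of cells held 77.3% of the Cxcl10 UMIs in Control and 38.3% in FGR. Such values depend on how many thinned cells held the gene at all. These were 1.97% and 9.07% for Cxcl10 and 18.2% and 12.3% for Ccl2.

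**Figure D3:**
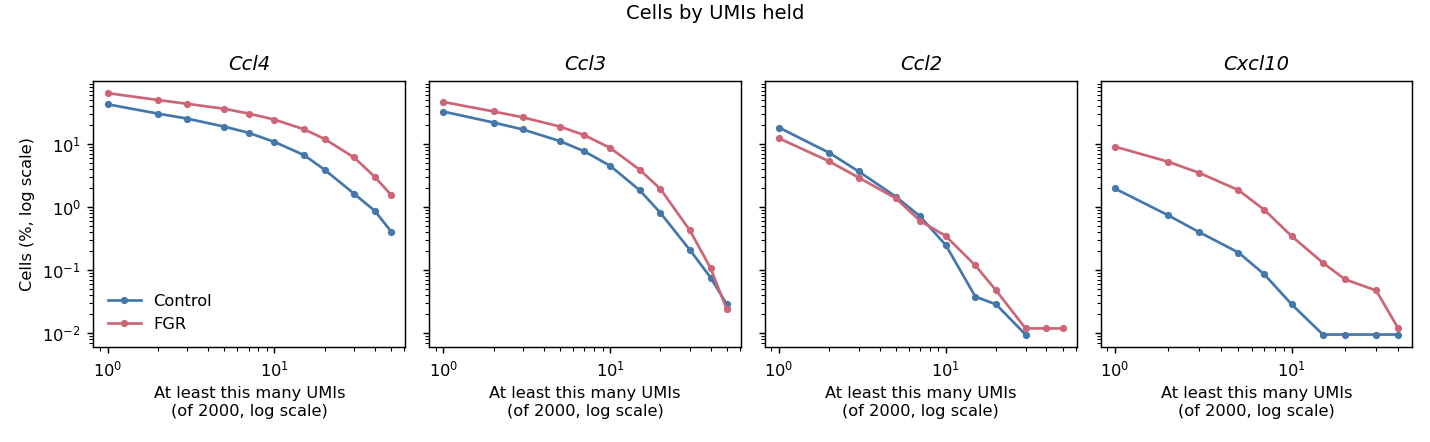
Share of thinned cells (%, log axis) that hold at least the number of UMIs on the x axis (log axis) for Ccl4, Ccl3, Ccl2 and Cxcl10 in the Control and FGR libraries. FGR lies above Control for Ccl4 over the plotted range and for Ccl3 and Cxcl10 up to 10 UMIs and beyond, the Ccl2 curves meet between 7 and 10 UMIs, and the ends of the Ccl2, Ccl3 and Cxcl10 curves rest on a few cells.

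UMIs of at least 1 of the genes were found in most cells, free RNA included. After thinning, none of the 9 was found in 23.3% of Control cells and 13.2% of FGR cells. The mean number found per cell was 1.44 and 1.92, and 4 or more were found in 4.67% and 10.3% of cells. The most found in a cell was 7 in Control and 8 in FGR, each in 1 cell.

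Which genes share cells was measured as the number of thinned cells with both genes over the number that the product of their shares gives. Of the 36 pairs, 30 in Control and 34 in FGR had a value above 1, and the median was 1.11 and 1.23. Values above 2 were few, with 2 pairs in Control and 5 in FGR. Pairs of other genes were not counted, so these counts have no background and are no result about chemokine genes as such. All genes of a cell share its library and its cell, and the values are a description.

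Ccl3 and Ccl4, neighbours in the genome, had the strongest correlation of any pair. Both were found in 2254 Control cells and 3110 FGR cells, 1.54 and 1.24 times the product. Since Ccl4 is found in most FGR cells, this value cannot be high there. The Pearson correlation of log counts across cells was 0.53 over 10535 Control cells and 0.54 over 8432 FGR cells, beside at most 0.20 for any other pair. In Control Ccl4 was found in 65.6% of cells with Ccl3 and 31.3% of cells without it, and in FGR in 79.6% and 50.5%.

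The balance within this pair leaned further to Ccl4 in FGR. Cells with neither gene made up 46.3% of the Control and 26.6% of FGR cells, cells with both 21.4% and 36.9%, with Ccl4 alone 21.1% and 27.1%, and with Ccl3 alone 11.2% and 9.45%. Ccl4 made up 67.5% (67.1% to 67.9%) of the UMIs of the pair in Control and 73.3% (73.0% to 73.6%) in FGR. Among cells with 10 or more UMIs of the pair, 1638 Control and 2553 FGR cells, the median share of Ccl4 was 72.7% and 78.6%. The quartiles of those cells were at 54.5% and 90% in Control and at 62.5% and 92.9% in FGR, so that the balance varied widely from cell to cell in both libraries. Of cells with 10 or more Ccl3 UMIs, 88.8% and 93.96% held Ccl4. Of cells with 10 or more Ccl4 UMIs, 77.9% and 77.7% held Ccl3.

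In cells grouped by Ccl4, a grouping chosen after the data were seen, the mean of Ccl3 was close between the libraries in the classes with Ccl4. In cells without Ccl4, with 1 to 9 and with 10 or more Ccl4 UMIs, Ccl3 had means of 0.538, 1.66 and 6.52 UMIs in Control and 0.778, 1.77 and 6.66 in FGR. The classes held 6055, 3347 and 1133 Control cells and 3038, 3344 and 2050 FGR cells. Cxcl10 did not follow this pattern. It was found in 1.49%, 2.27% and 3.62% of Control cells of the classes and in 5.40%, 9.09% and 14.5% of FGR cells, so that FGR was higher in every class. Ccl2 was found in 17.4%, 17.2% and 25.3% of Control cells and in 9.97%, 11.5% and 17.0% of FGR cells, lower in FGR in every class. Ccl9 was the flattest, at 24.8%, 26.7% and 30.7% in Control and 28.3%, 30.5% and 31.6% in FGR.

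The Ccr2 ligands were found together more often than the product of their shares. Ccl2 and Ccl7 were found together in 22 Control and 27 FGR cells, 3.36 and 4.58 times the product. Ccl2 and Ccl12 were found together in 431 and 296 cells, 1.31 and 1.46 times. Ccl7 and Ccl12 shared 9 and 23 cells, 1.45 and 2.44 times. These 3 genes lie in the same stretch of chromosome 11, and Ccl7 was found in few cells.

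Cxcl2 and Cxcl10 shared 4 Control and 50 FGR cells, 3.28 and 2.61 times the product, and in FGR Cxcl10 was found in 23.7% of cells with Cxcl2 and 8.70% of cells without it. The Control value rests on those 4 cells: it was 1.11 without the 6% of cells richest in UMIs and 0 with cells thinned to 1500 UMIs, where the FGR values were 2.77 and 3.05. The remaining values above 2 were those of Ccl7 with Cxcl10 and with Cxcl2 in FGR, from 15 and 6 shared cells. Ccl2 and Cxcl10 shared 39 and 139 cells, 1.04 and 1.48 times the product. Ccl4 and Cxcl10 shared 117 and 601 cells, 1.33 and 1.23 times. Ccl9 stood near the product with its partners, between 0.994 and 1.17 times in Control and 0.901 and 1.25 times in FGR.

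**Figure D4:**
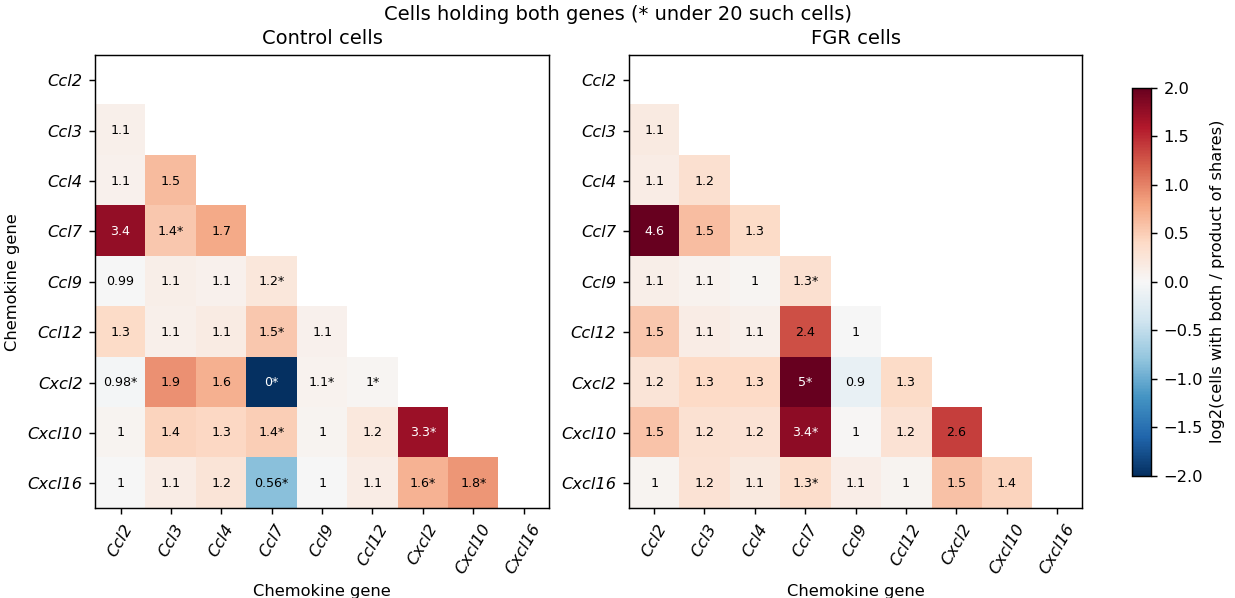
Cells holding both genes of a pair over the number given by the product of their shares, printed in each field and coloured on a log2 scale that ends at -2 and 2, for Control and FGR cells thinned to 2000 UMIs. Ccl2 with Ccl7 is high in both libraries, Ccl9 is near 1 throughout, and fields with an asterisk rest on fewer than 20 cells.

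Genes of early cell activation also had higher levels in FGR. The summed UMIs of 12 immediate early genes (Fos, Fosb, Jun, Junb, Egr1, Ier2, Ier3, Btg2, Zfp36, Atf3, Nr4a1 and Klf6), which respond within minutes to stimuli that include tissue handling, had a mean of 48.2 per thinned cell in Control and 61.6 in FGR. The cells of both libraries were therefore put into 4 strata by this sum, of 0 to 32, 33 to 50, 51 to 72 and 73 to 208 UMIs. The strata held 3199, 2841, 2718 and 1777 Control cells and 1711, 1843, 2030 and 2848 FGR cells. The highest stratum thus held 16.9% of Control cells and 33.8% of FGR cells. Within 1 UMI of a limit lay 12.02% and 9.903% of the cells.

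Ccl4, Ccl3 and Cxcl10 had ratios above 1 in each stratum, and their ratios were larger in the upper strata than in the lowest. The ratio of Ccl4 was 1.582, 1.999, 2.348 and 2.88 from the lowest to the highest stratum. That of Ccl3 was 1.12 (1.07 to 1.18), 1.58, 1.70 and 2.16. That of Cxcl10 was 2.80 (2.24 to 3.51), 5.65, 8.82 and 8.97. Behind these ratios lay FGR values that were higher in the upper strata, while the Control values had no such order. The mean of Ccl4 per cell was 2.92, 3.63, 3.34 and 2.78 UMIs in the Control strata and 4.63, 7.27, 7.85 and 8.02 in the FGR strata. Cxcl10 was found in 1.66%, 2.39%, 1.95% and 1.86% of Control cells and in 3.92%, 7.98%, 11.6% and 11.1% of FGR cells.

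Ccl2 was found in more cells of the upper strata in both libraries, 14.1%, 18.1%, 20.3% and 22.4% of Control cells and 7.54%, 9.49%, 11.8% and 17.3% of FGR cells. Its ratio was 0.688, 0.633, 0.641 and 0.803, with intervals below 1 in all 4. The lower level of Ccl2 in FGR was thus present within each stratum. The mean immediate early UMIs of the libraries were close in the lower 3 strata and 88.4 against 99.7 in the highest. Ccl9 had ratios of 1.26, 1.193, 1.153 and 1.202. Ccl12 had 1.34, 1.26, 1.16 and 1.02, and the interval of the last (0.923 to 1.13) held 1. Cxcl16 had ratios of 1.59, 1.71, 1.80 and 1.93. Cxcl2 had 1.69 and 2.29 in the lower strata and 13.1 and 33.7 (11.3 to 165) in the upper ones, where the Control cells held 26 and 3 UMIs. By the rule of size 2 of 6 measured genes were higher in the lowest stratum (Ccl4 and Cxcl10), 3 of 6 in the second, 4 of 7 in the third, where Cxcl2 joined, and 3 of 6 in the highest. Of all genes measured, 1.32%, 1.43%, 1.64% and 1.95% were called higher in these strata.

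**Figure D5:**
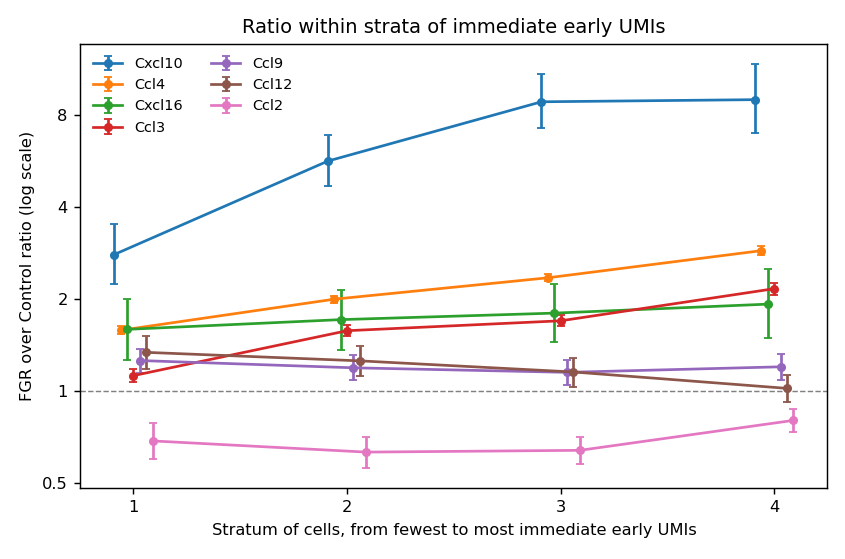
Ratio of FGR over Control (log axis, exact intervals of counting error) of 7 chemokine genes within 4 strata of cells ordered by UMIs of 12 immediate early genes; the dashed line marks 1. Cxcl10, Ccl4 and Ccl3 have larger ratios in the upper strata, Ccl9 and Cxcl16 change little beside their intervals, Ccl12 goes from 1.34 to 1.02, and Ccl2 stays below 1.

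Of 22 genes of the NF-kB pathway, which drives many chemokine promoters, 13 were measured, 3 were called higher in FGR and 0 lower, with a median log2 ratio of -0.08. The 3 were Tnfaip3 (79.7 and 329 CPM, ratio 4.13) and Nfkbia (838 and 2163 CPM, 2.58), which encode inhibitors of the pathway and are induced by it, and Cd83 (138 and 381 CPM, 2.76), a surface protein of activated myeloid cells. Of the others, the adhesion molecule gene Icam1 stood at 356 and 294 CPM, the nuclear regulator gene Nfkbiz at 276 and 340.3, and the subunit genes Rel at 178 and 167 and Nfkb1 at 176 and 156. The tumour necrosis factor gene Tnf stood at 71.9 and 81.8 CPM, and the subunit gene Nfkb2 at 55.7 and 37.7. In sums over the list Nfkbia, the gene with the highest level in both libraries, weighs most, and no sum was taken without it. Cells with Cxcl2 held more UMIs of the list than cells without it, 7.37 against 5.33 in Control and 13.9 against 8.35 in FGR. For Cxcl10 these means were 7.30 against 5.30 and 11.7 against 8.17. For Ccl4 they were 5.51 against 5.21 and 9.29 against 7.08, a wider gap in FGR. For Ccl9 they were 5.35 against 5.34 and 8.51 against 8.49. The part of the pathway in any of these levels was not tested.

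Of 24 genes of the interferon pathway 7 were measured, 0 were called and the median log2 ratio was 0.03. The receptor gene Ifngr1 stood at 810.0 and 829 CPM, the kinase gene Jak1 at 223 and 238, Ifnar2 at 198 and 227 and Ifngr2 at 158 and 134. These receptor and kinase genes had the highest levels of the list and weigh most in its sum. By the UMIs of the whole list (0 to 1, 2 to 4, and 5 or more per thinned cell), Cxcl10 was found in 1.63%, 2.07% and 1.92% of Control cells and in 10.9%, 8.52% and 9.26% of FGR cells, with no order by interferon UMIs. Ccl12 was found in 16.8%, 17.1% and 17.6% and in 20.9%, 19.8% and 18.8%. A small set of cells with 3 or more UMIs of 13 interferon-induced genes of the list, a set chosen after the data were seen, made up 90 Control cells (0.854%) and 89 FGR cells (1.06%). Ccl12 had means of 2.11 UMIs in these cells and 0.233 in the others in Control, and 3.08 and 0.281 in FGR. Cxcl10 had means of 0.678 and 0.0372 in Control and 3.77 and 0.245 in FGR. These cells held 13.6% and 14.1% of the Cxcl10 UMIs, and in FGR 28.1% of them held Cxcl10 beside 8.87% of the others. Most of the 9 genes had higher means in these rare cells. Against the other cells of the library, Ccl2 stood at 2.31 times in Control and 2.79 times in FGR, and Cxcl16 at 2.59 and 3.44. Ccl3 stood at 2.08 and 1.33, and Ccl4 at 2.48 and 1.43. All these intervals of counting error lay above 1. In Control the shares of cells with Ccl3 and Ccl4 were higher too, 47.8% against 32.5% and 62.2% against 42.4%. In FGR they were not, at 44.9% against 46.35% and 60.7% against 64.0%. In FGR Cxcl2 stood at 15.04 times and Ccl7 at 13.96 times, from 7 and 5 cells. Cxcl2 was found in 0 of the 90 Control cells. Ccl9 stood at 1.06 and 0.739 times its mean in other cells, with intervals that held 1. Outside these cells the FGR over Control ratio of Cxcl10 was 6.59 (5.91 to 7.36) and that of Ccl12 was 1.203.

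Cells with 3 or more UMIs of border macrophage markers numbered 21 Control and 24 FGR cells after thinning. Cxcl2 was found in 1 of 21 and in 7 of 24 (29.2%) of them, beside 2.43% of the other FGR cells, and these 24 cells held 15.6% of the Cxcl2 UMIs of the FGR library. The summed level of the 6 markers was 42.0 and 40.6 CPM, most of it Mrc1 (40.3 and 33.6 CPM). The other 5 were rare and all had more UMIs in FGR: Pf4 50 and 159, Ms4a7 13 and 109, Cbr2 30 and 41, and Cd163 and Lyve1 0 and 4 each. The part of the border macrophage marker cells in the Cxcl2 and Ccl7 ratios was measured only by leaving them out. After thinning, this took the ratio from 4.61 to 3.94 for Cxcl2 and from 2.646 to 2.525 for Ccl7. At full depth, where the limit of 3 UMIs takes another set of cells, the ratios without them were 3.04 and 1.88. Ccl4 and Ccl3 had lower means in the thinned marker cells than in the others in both libraries. In Control their shares were lower too, 23.8% against 42.6% for Ccl4 and 28.6% against 32.6% for Ccl3. In FGR the share was 62.5% against 64.0% for Ccl4 and higher for Ccl3, 54.2% against 46.3%.

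Of 24 chemokine receptor genes 3 were measured, 1 was called higher and 0 lower, and the median log2 ratio was -0.18. Ccrl2, an atypical receptor that holds the chemoattractant chemerin at the cell surface, stood at 73.4 and 261 CPM, a ratio of 3.56 (3.43 to 3.69), and was found in 18.2% and 47.6% of cells. Cx3cr1, the microglial receptor of fractalkine, stood at 4799 and 4248 CPM. Ccr1, the receptor of Ccl9, stood at 26.1 and 20.3 CPM, and Ccr2, the receptor of the MCP group, at 3.995 and 3.081, with Ccr6 at 4.57 and 3.565. The sheddases of Cxcl16, Adam10 (268 and 267 CPM) and Adam17 (193 and 176 CPM), were measured and not called.

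Of 26 other chemokine genes 25 were counted and 1 was measured, Ccl6, the neighbour and close relative of Ccl9. It stood at 132 and 158 CPM, a ratio of 1.203 (1.164 to 1.243), and was found in 36.1% and 42.8% of cells. Of the others, Ccl25 (13.1 and 10.4 CPM) and Ccl24 (7.41 and 9.79 CPM) had the highest levels. Ccl5 (63 and 177 UMIs) and Cxcl12 (3.02 and 9.09 CPM) were rare. The Cxcl12 value stood beside higher vascular and astrocyte marker sums in FGR, whose part in it was not tested.

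Genes most like each of the 9 were ranked by the lower, over both libraries, of the correlations of log counts across thinned cells, among 5178 genes found in at least 5% of cells of each library. For Ccl3 the first was Ccl4, followed by the surface genes Cd83 (0.19 Control, 0.22 FGR) and Cd63 (0.21 and 0.18), the stress transcription factor gene Atf3 (0.18 and 0.25) and the tetraspanin gene Cd9 (0.22 and 0.17). For Ccl4 they were Ccl3, Cd83 (0.19 and 0.27), Cd63 (0.18 and 0.16), Cd9 (0.19 and 0.16) and Ccrl2 (0.16 and 0.20). Atf3 is also 1 of the 12 immediate early genes. For Ccl2, Ccl9, Ccl12 and Cxcl16 no gene ranked had a correlation above 0.14, which in counts this sparse is no finding. Ccl7, Cxcl2 and Cxcl10 were found in too few cells to be ranked.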

How the data were processed

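Per the file headers, the deposited matrices hold raw UMI counts per gene and barcode, written by Cell Ranger 4 without normalization or a filter on cells. Per the submitters' processing notes, Cell Ranger 3.0, Seurat 5.0 and mm10 were used. The annotation and the strand setting were both not given in the sources used here. Sample groups came from the sample titles. The Control and FGR matrices held 1961707 and 1935841 barcodes and 58988805 and 50833332 UMIs. Of 10706 and 8647 barcodes with 1500 UMIs, 3 and 2 were removed for few genes and 16 and 27 for mitochondrial UMIs. No doublet caller was run, and 1 alternative dropped the 6% of cells richest in UMIs.

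UMI counts were summed over cells and scaled to CPM. Levels have exact Poisson, ratios exact conditional and shares exact Clopper-Pearson intervals. All 32285 gene IDs, summed by gene symbol, entered the rule of size, and the calculation was tested on simulated data. Thinning drew UMIs without replacement. Genes named from a list were those past the rule and up to 4 others of high level. Nfkb2, Tnf, Ccr2 and Ccl5 were named after their values were seen, and some list genes are not reported here. The 9 genes, the lists and the comparisons were chosen with earlier results of these data known. Alternatives changed cell filters, scaling, free RNA, depth, doublets, cells of other types and the limits of the rule. Python 3.11.15, numpy 2.4.6, scipy 1.17.1 and pandas 2.3.3 were used.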

Additional observations from a re-analysis of the deposited data

How the results depend on the processing

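The number of the 9 genes called higher in the FGR library was 3 and the number called lower was 0. With a level minimum of 10 CPM the number higher was 5, and with no minimum it was 6, the low genes Cxcl2, Cxcl16 and Ccl7 being added. With a fold of 2 in place of 1.5 it was 2, Ccl4 and Cxcl10. At 10 CPM 2.17% of all 8328 genes measured were called higher. The share over all genes was not counted with no minimum or with a fold of 2, so those counts have no background. Under 10 other alternatives to the cell filters, scaling, free RNA and depth, 2 of them chosen after the data were seen, the number higher was 3, and each of the 90 ratios kept its direction and its side of the rule. The ratio of Cxcl10 ranged from 6.62 (cells thinned to 2000 UMIs) to 7.86 (cells of at least 3000 UMIs), that of Ccl4 from 2.19 to 2.38, that of Ccl3 from 1.68 to 1.83 and that of Ccl2 from 0.741 to 0.809. Thinning to 2000 UMIs moved all 18 shares of cells and all 18 means per expressing cell by more than their counting interval. A detection limit of at least 2 UMIs also moved all 18 shares, a minimum of 3000 UMIs moved 9 of 18, and leaving out the 6% of cells richest in UMIs moved 12 of 18 means. Of 72 co-detection values, 6 moved with thinning to 1500 UMIs, among them Ccl3 with Ccl4 (1.65 in Control and 1.32 in FGR) and, in Control, Cxcl2 with Cxcl10 (0). With 3 strata of immediate early UMIs in place of 4, 1 ratio in the lowest stratum crossed to the other side of the rule. No paired analysis was possible because each group is 1 library. Ccl7, with 147 and 284 UMIs, and Cxcl2 in the upper strata are limited by depth.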
